A study of Mus musculus with 10 samples.

Results

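Of the genes on the arrays, 4 are described here: Wnt4, Wnt5b and Wnt6, which encode secreted Wnt ligands, and Wif1, which encodes Wnt inhibitory factor, a secreted protein that binds Wnt ligands. They were taken by symbol, as the probe sets annotated to 1 of these genes alone. Each had 1 probe set (1450782_at for Wnt4, 1439373_x_at for Wnt5b, 1435980_x_at for Wnt6 and 1425425_a_at for Wif1), so 4 of the 3663 probe sets and 4 of the 2932 features tested are members. A feature is a gene, or a probe set without exactly 1 gene symbol. The suffix _x_at marks probe sets whose probes can match other transcripts, and _a_at those that match several transcripts of 1 gene.

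RNA came from mammary glands of virgin female FVB mice aged 6 to 8 weeks. After staining for blood and vessel markers (CD45, CD31, Ter119) and for Thy-1, CD24 and CD49f, cells were sorted in 2 rounds into 5 populations, each with 2 Affymetrix arrays. The study's methods also list an antibody to CD140α. None of the populations was treated. Basal cells lie outermost in the mammary duct and include contractile myoepithelial cells, while luminal cells line its lumen. The basal populations were CD24medCD49fmed cells, which the series describes as myoepithelial, Thy-1+CD24medCD49fhigh cells, described as stem cells, and Thy-1-CD24medCD49fhigh cells, described as progenitors, with 6 arrays in all. The luminal populations were CD24highCD49fmed cells, described as luminal progenitors, and CD24medCD49f-/low cells, described as differentiated, with 4 arrays in all. The study's text places its myoepithelial gate at CD24lowCD49fmed, and whether this is the CD24medCD49fmed gate of the labels is not stated. The labels do not tell whether the 2 arrays of a population came from separate animals or pools, so the p-values cover only the spread between these samples.

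Wnt ligands are secreted glycoproteins that act over short distances on frizzled receptors of the same or neighbouring cells. Binding together with an LRP co-receptor stabilises β-catenin, which joins TCF/LEF factors on target genes, and other Wnt signals act without β-catenin. WIF1, SFRP and DKK family proteins and others block the ligand or its receptor outside the cell. In the mouse mammary gland, Wnt4 is known as a signal made by hormone receptor-positive luminal cells after progesterone, which acts on neighbouring basal cells. Wnt5b is usually classed among ligands that act without β-catenin, and Wnt6 among those that can act through it.

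The values are log2 intensities that the authors centred on each probe set's own average over the 10 arrays. A value of 1 therefore means a signal 2-fold above that gene's own average. The values do not show how much of a transcript was present, and a level of one gene cannot be set against that of another. The table also keeps only probe sets that vary at least 4-fold between some arrays. Over the 10 arrays the values of Wnt4 spanned 2.12 on the log2 scale, those of Wnt5b 2.72, those of Wnt6 3.51 and those of Wif1 5.80. The median span over all features was 2.46. In cells sorted in bulk, fewer cells of a type and less RNA per cell cannot be told apart.

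The labelled layers were checked against marker genes. All 13 basal and myoepithelial markers were called higher in the basal than in the luminal arrays. All 8 luminal progenitor markers and 6 of 7 hormone sensing markers in the table were called lower. The shared luminal markers separated the layers less fully, with 4 of 7 called lower and 3 not called. The shares over all features in this comparison were 34.7% called higher and 41.3% called lower. Between the luminal gates, 0 of the 8 luminal progenitor and 0 of the 7 hormone sensing markers were called by limma in CD24highCD49fmed minus CD24medCD49f-/low, with 0 and 1 at an unadjusted p under 0.05. Of the 13 basal and myoepithelial markers 1 was called lower in that comparison, with a median difference of -1.42 against 0.35 over all features, and array means over these markers were -2.92 and -2.91 in CD24highCD49fmed cells and -1.62 and -1.38 in CD24medCD49f-/low cells. Correlations between the partner arrays of a population ran from 0.364 to 0.924 over probe sets. CD24medCD49f-/low replicate 1 correlated at 0.761 with CD24highCD49fmed replicate 1 and at 0.364 with its partner. That partner, replicate 2, correlated at 0.596 with CD24highCD49fmed replicate 2. Thy-1+CD24medCD49fhigh replicate 1 correlated at 0.836 with CD24medCD49fmed replicate 2 and at 0.449 with its partner. Those last 2 basal arrays were the highest in epidermal keratinocyte markers, with means over 8 genes of 2.49 and 1.98, against -0.87 to -0.11 in the other 8 arrays. Results are given with and without both arrays where a call changes.

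The sequences 250 bases upstream of the RefSeq start sites (build GRCm38.p6) are shown because Wif1 and Wnt6 were high in the same layer and Wnt5b and Wnt4 in the opposite one. Each is written 5′ to 3′ on the strand of its gene, and capitals mark CTTTGA, the core bound by TCF/LEF factors. All 4 genes matched the RefSeq table by symbol, Wnt5b with 3 start sites, of which the third is printed since it alone held the core.
Wif1, chr10:121033754-121034003, plus strand: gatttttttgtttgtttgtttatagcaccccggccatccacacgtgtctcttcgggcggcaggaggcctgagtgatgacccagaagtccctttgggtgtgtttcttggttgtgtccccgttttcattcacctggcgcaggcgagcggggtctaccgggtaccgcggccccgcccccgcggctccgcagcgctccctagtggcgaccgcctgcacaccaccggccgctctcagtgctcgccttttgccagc
Wnt6, chr1:74771642-74771891, plus strand: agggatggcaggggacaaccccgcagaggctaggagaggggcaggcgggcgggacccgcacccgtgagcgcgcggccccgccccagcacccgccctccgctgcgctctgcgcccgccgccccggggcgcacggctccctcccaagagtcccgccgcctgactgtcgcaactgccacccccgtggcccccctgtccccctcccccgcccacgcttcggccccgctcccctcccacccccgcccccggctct
Wnt5b, chr6:119449387-119449636, minus strand: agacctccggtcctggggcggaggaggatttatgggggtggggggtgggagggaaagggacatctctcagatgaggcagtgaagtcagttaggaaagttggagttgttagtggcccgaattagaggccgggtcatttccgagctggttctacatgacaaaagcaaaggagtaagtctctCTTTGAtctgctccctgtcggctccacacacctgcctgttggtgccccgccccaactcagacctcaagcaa
Wnt4, chr4:137277385-137277634, plus strand: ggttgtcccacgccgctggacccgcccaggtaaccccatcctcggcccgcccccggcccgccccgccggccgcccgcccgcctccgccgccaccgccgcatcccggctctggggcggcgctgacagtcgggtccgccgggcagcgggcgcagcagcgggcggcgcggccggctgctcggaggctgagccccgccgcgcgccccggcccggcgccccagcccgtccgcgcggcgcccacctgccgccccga
The Wnt4 window was 85.2% G and C with 44 CpG dinucleotides, and the Wnt6 window 79.6% with 28. The Wif1 window was 62.8% G and C with 21 CpG dinucleotides. The 3 Wnt5b windows had 75.2%, 53.2% and 55.6% G and C and 35, 4 and 7 CpG dinucleotides. Over all 32851 windows of this length the medians were 52.4% and 6. Both strands were searched for CTTTGA, the core of TCF/LEF factors (in 13.8% of all windows), AGATAA, bound by factors of the GATA family (9.99%), CCGGAA, the core of ETS factors (12.0%), and TATAAA, the TATA box (12.4%). The CTTTGA in the Wnt5b window lay at positions -71 to -66 from the start site, and the Wif1 window held a TATAAA on the opposite strand at -232 to -227. No other match was found in these windows, and the matches did not overlap.

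Wif1 was the member that differed most between the layers, and it was high in every basal population. Its centred log2 values were 2.53 and 1.55 in CD24medCD49fmed cells, 2.28 and 1.33 in Thy-1+CD24medCD49fhigh cells and 1.77 and 1.53 in Thy-1-CD24medCD49fhigh cells. They were -3.27 and -3.18 in CD24highCD49fmed cells and -2.25 and -2.30 in CD24medCD49f-/low cells. The 6 basal and the 4 luminal arrays did not overlap. Basal arrays averaged 1.83 ± 0.47 and luminal arrays -2.75 ± 0.55 (SD, n = 6 and 4), a difference of 4.59 ± 0.34 (SE) or 24.0-fold (limma, adjusted p = 3.43e-09). In this comparison 76.0% of all features were called, 34.7% higher and 41.3% lower in basal cells, so a call alone does not set a gene apart from the table. Arrays did not overlap between the layers for 49.0% of features, with basal cells higher for 25.2% and lower for 23.8%. The span of Wif1 over the 10 arrays exceeded that of 99.6% of features.

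Wnt6 followed the same order of layers at a smaller size. Its values were 0.66 and 0.61 in CD24medCD49fmed cells, 0.77 and 0.41 in Thy-1+CD24medCD49fhigh cells and 0.78 and 1.58 in Thy-1-CD24medCD49fhigh cells. In luminal cells they were -1.92 and -1.04 in the CD24highCD49fmed gate and -1.12 and -0.72 in the CD24medCD49f-/low gate. The highest array was Thy-1-CD24medCD49fhigh replicate 2, and the layers did not overlap. Basal arrays averaged 0.80 ± 0.41 and luminal arrays -1.20 ± 0.51 (SD, n = 6 and 4), and the difference was 2.00 ± 0.34 (4.01-fold, limma, adjusted p = 4.38e-05).

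Wnt5b was higher in luminal cells. Its values were -0.63 and -1.47 in CD24medCD49fmed cells, -0.40 and -0.32 in Thy-1+CD24medCD49fhigh cells and -0.65 and -0.020 in Thy-1-CD24medCD49fhigh cells. They stood at 1.25 and 0.67 in CD24highCD49fmed cells and at 1.03 and 0.54 in CD24medCD49f-/low cells. Every luminal array lay above every basal array, and CD24medCD49fmed replicate 3 was the lowest. Basal arrays averaged -0.58 ± 0.49 and luminal arrays 0.87 ± 0.32 (SD, n = 6 and 4), a difference of -1.46 ± 0.34, or 2.74-fold lower in basal cells (limma, adjusted p = 8.68e-04).

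Wnt4 had the smallest difference and was the 1 member whose layers overlapped. Its values were -0.86 and -0.13 in CD24medCD49fmed cells, -0.34 and 0.15 in Thy-1+CD24medCD49fhigh cells and -0.20 and -0.56 in Thy-1-CD24medCD49fhigh cells. They were 0.22 and 0.55 in CD24highCD49fmed cells and -0.093 and 1.27 in CD24medCD49f-/low cells. CD24medCD49f-/low replicate 1 lay below Thy-1+CD24medCD49fhigh replicate 2, while replicate 2 of that luminal gate was the highest of all 10 arrays. CD24medCD49f-/low replicate 1 also had the lowest median over all probe sets, -0.43, whose part in the overlap was not tested. The basal arrays highest in Wnt4, Thy-1+CD24medCD49fhigh replicate 2 (0.15) and CD24medCD49fmed replicate 3 (-0.13), were also the highest basal arrays in 7 shared luminal markers, with means of 0.68 and 0.19 against -1.64 to -0.27 in the other 4. In the 7 hormone sensing markers they stood at 0.32 and -0.050, against -2.01 to -0.63. The part of these markers in the Wnt4 values was not tested. Basal arrays averaged -0.32 ± 0.35 and luminal arrays 0.48 ± 0.58 (SD, n = 6 and 4), a difference of -0.81 ± 0.35 with a 95% interval from -1.54 to -0.076 (1.75-fold lower in basal cells, limma, adjusted p = 0.0428). With 1 of the 10 arrays left out in turn it was called in 3 fits. These were the fits without CD24medCD49fmed replicate 3, Thy-1+CD24medCD49fhigh replicate 2 or CD24medCD49f-/low replicate 1. The differences ran from -1.15 to -0.47, the smallest without CD24medCD49f-/low replicate 2 (adjusted p = 0.179). Without the 2 arrays highest in keratinocyte markers the difference was -0.61 (adjusted p = 0.200). With these 2 arrays left out, Wnt5b, Wnt6 and Wif1 were still called in the same direction.

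**Figure D1:**
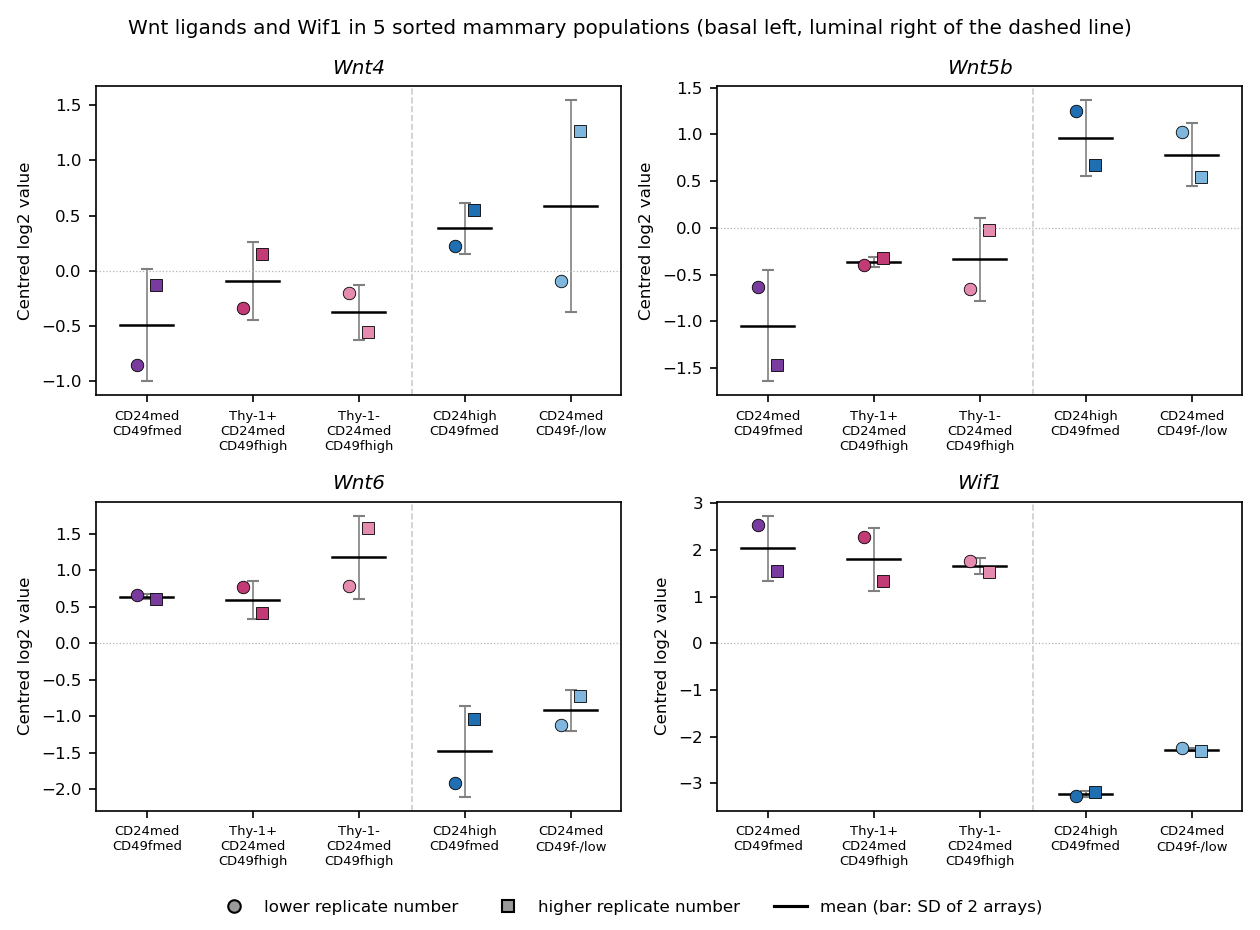
Centred log2 value (vertical axis) of each member in the 5 populations, with 1 point per array, lines at the mean and bars of 1 SD over 2 arrays; basal populations stand left of the dashed line. Wif1 and Wnt6 lie above 0 in all 6 basal and below 0 in all 4 luminal arrays, Wnt5b lies the other way round, and Wnt4 overlaps between the layers.

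The layer difference was then taken apart into the 6 pairs of 1 basal and 1 luminal population. Wif1 was called higher in the basal population in 6 of 6 pairs, with differences from 3.93 (Thy-1-CD24medCD49fhigh minus CD24medCD49f-/low, adjusted p = 5.04e-05 by limma) to 5.27 (CD24medCD49fmed minus CD24highCD49fmed, adjusted p = 5.01e-07). Of all features, 27.4%, 26.3% and 21.8% were called higher in CD24medCD49fmed, Thy-1+CD24medCD49fhigh and Thy-1-CD24medCD49fhigh cells than in CD24highCD49fmed cells. Than in CD24medCD49f-/low cells, 22.0%, 18.9% and 17.4% were called higher, in the same order. All 6 Wif1 calls held with each array left out in turn.

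Wnt6 was also called higher in the basal population in 6 of 6 pairs, by 1.51 (Thy-1+CD24medCD49fhigh minus CD24medCD49f-/low) to 2.66 (Thy-1-CD24medCD49fhigh minus CD24highCD49fmed). The pair with the largest difference was the 1 pair whose call held without any single array. Thy-1+CD24medCD49fhigh minus CD24medCD49f-/low (adjusted p = 0.0383 by limma) was called only without Thy-1-CD24medCD49fhigh replicate 1 or 2 or CD24medCD49f-/low replicate 2, and its differences ran from 1.31 to 1.71. CD24medCD49fmed minus CD24medCD49f-/low (1.56) was not called without CD24medCD49fmed replicate 2 (1.53) or 3 (1.58) or CD24medCD49f-/low replicate 1 (1.36). Thy-1-CD24medCD49fhigh minus CD24medCD49f-/low (2.10) was lost without Thy-1-CD24medCD49fhigh replicate 2 (1.70). Against CD24highCD49fmed cells, leaving out replicate 1 of that gate ended the calls for CD24medCD49fmed (1.68) and Thy-1+CD24medCD49fhigh cells (1.63), and leaving out Thy-1+CD24medCD49fhigh replicate 1 ended the second of them (1.89). Without both arrays highest in keratinocyte markers, Wnt6 was not called for CD24medCD49fmed minus CD24medCD49f-/low (1.53), Thy-1+CD24medCD49fhigh minus CD24highCD49fmed (1.89) or Thy-1+CD24medCD49fhigh minus CD24medCD49f-/low (1.33).

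For Wnt5b, 4 of 6 pairs were called, all lower in the basal population. Of all features, 39.6%, 35.7% and 38.1% were called lower in CD24medCD49fmed, Thy-1+CD24medCD49fhigh and Thy-1-CD24medCD49fhigh cells than in CD24highCD49fmed cells, and 13.2%, 7.23% and 9.86% lower than in CD24medCD49f-/low cells. CD24medCD49fmed cells differed by -2.01 from CD24highCD49fmed cells (adjusted p = 0.00371 by limma) and by -1.83 from CD24medCD49f-/low cells (adjusted p = 0.0106). Thy-1+CD24medCD49fhigh and Thy-1-CD24medCD49fhigh cells differed from CD24highCD49fmed cells by -1.32 and -1.30, and from CD24medCD49f-/low cells by -1.15 (adjusted p = 0.0990 by limma) and -1.12 (adjusted p = 0.104), which were not called. None of the 4 calls held without every array in turn. Without CD24medCD49fmed replicate 3 the differences of that population were -1.59 from CD24highCD49fmed cells and -1.41 from CD24medCD49f-/low cells, and neither was called. CD24highCD49fmed replicate 1 was needed for all 3 calls against its gate, which without it had differences of -1.72 (CD24medCD49fmed), -1.04 (Thy-1+) and -1.01 (Thy-1-). Without CD24highCD49fmed replicate 2 the Thy-1+ (-1.61) and Thy-1- (-1.58) differences were not called, nor was Thy-1+ without its own replicate 1 (-1.29) or 2 (-1.36), nor Thy-1- without its own replicate 1 (-0.98). Without both arrays highest in keratinocyte markers, the call of Thy-1+ minus CD24highCD49fmed (-1.29) was lost. Without CD24medCD49f-/low replicate 2, Thy-1+ (-1.39) and Thy-1- (-1.36) were called against that gate.

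Wnt4 was called in 0 of 6 pairs (0 also at an unadjusted p under 0.05), with differences from -1.08 (CD24medCD49fmed minus CD24medCD49f-/low, adjusted p = 0.118 by limma) to -0.48 (Thy-1+CD24medCD49fhigh minus CD24highCD49fmed, adjusted p = 0.435). Without CD24medCD49f-/low replicate 1, CD24medCD49fmed (-1.76) and Thy-1-CD24medCD49fhigh cells (-1.65) were called lower than the remaining CD24medCD49f-/low array. With 1 array left in a gate, that array is taken to vary as the others do.

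By mean, Wif1 stood in the order CD24medCD49fmed (2.04), Thy-1+CD24medCD49fhigh (1.81), Thy-1-CD24medCD49fhigh (1.65), CD24medCD49f-/low (-2.28) and CD24highCD49fmed (-3.23). Of its 4 steps only that from the third to the fourth was called. Wnt6 ran from Thy-1-CD24medCD49fhigh (1.18) over CD24medCD49fmed (0.64), Thy-1+CD24medCD49fhigh (0.59) and CD24medCD49f-/low (-0.92) to CD24highCD49fmed (-1.48), and again only the step between layers was called. Wnt5b ran from CD24highCD49fmed (0.96) over CD24medCD49f-/low (0.78), Thy-1-CD24medCD49fhigh (-0.34) and Thy-1+CD24medCD49fhigh (-0.36) to CD24medCD49fmed (-1.05). Wnt4 ran from CD24medCD49f-/low (0.59) over CD24highCD49fmed (0.38), Thy-1+CD24medCD49fhigh (-0.095) and Thy-1-CD24medCD49fhigh (-0.38) to CD24medCD49fmed (-0.49). No step between neighbours in the Wnt5b or the Wnt4 order was called. For the Wnt5b step between the layers, Thy-1-CD24medCD49fhigh minus CD24medCD49f-/low, the 95% interval excluded 0 (-2.20 to -0.040) while the adjusted p was 0.104 by limma.

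In the fit to the values as given by the authors, no member separated CD24highCD49fmed from CD24medCD49f-/low cells, also at an unadjusted p under 0.05. The differences were -0.95 ± 0.53 for Wif1 (95% interval -2.04 to 0.14, adjusted p = 0.376 by limma) and -0.56 ± 0.52 for Wnt6 (-1.64 to 0.52, adjusted p = 0.587). They were 0.18 ± 0.52 for Wnt5b (-0.90 to 1.26, adjusted p = 0.882) and -0.20 ± 0.55 for Wnt4 (-1.34 to 0.93, adjusted p = 0.871). Both Wif1 arrays of CD24highCD49fmed lay below both of CD24medCD49f-/low, as did the array means of the basal and myoepithelial markers, whose part in this was not tested. The median difference of all features was 0.35, and 0.205% of features were called. The intervals leave room for differences of over 2-fold in each gene.

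The study asked whether Thy-1 divides the CD24medCD49fhigh gate into distinct cells. It reported that it does, from real-time PCR, published single-cell RNA sequencing, arrays of FVB and another strain, and transplantation. The members alone cannot answer that question. Among the members, Thy-1+ minus Thy-1- differences were 0.29 ± 0.55 for Wnt4 (95% interval -0.85 to 1.42), -0.027 ± 0.52 for Wnt5b (-1.11 to 1.05), -0.59 ± 0.52 for Wnt6 (-1.67 to 0.49) and 0.15 ± 0.53 for Wif1 (-0.94 to 1.25). All 4 had an adjusted p of 0.999 by limma, and 0.0682% of all features were called. Differences of over 2-fold lie within the interval of each gene. For Wnt6 the Thy-1+ values, 0.77 and 0.41, both lay below the Thy-1- values, 0.78 and 1.58.

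CD24medCD49fmed cells were set against the mean of both CD24medCD49fhigh populations. Wnt5b differed by -0.70 ± 0.45 (95% interval -1.64 to 0.24), Wnt4 by -0.26 ± 0.47 (-1.24 to 0.73), Wnt6 by -0.25 ± 0.45 (-1.19 to 0.69) and Wif1 by 0.31 ± 0.46 (-0.64 to 1.26). No member was called, with 0.0341% of features called in this comparison by limma. The lowest basal value of Wnt4 was in CD24medCD49fmed replicate 2 and that of Wnt5b in replicate 3 of the same population.

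**Figure D2:**
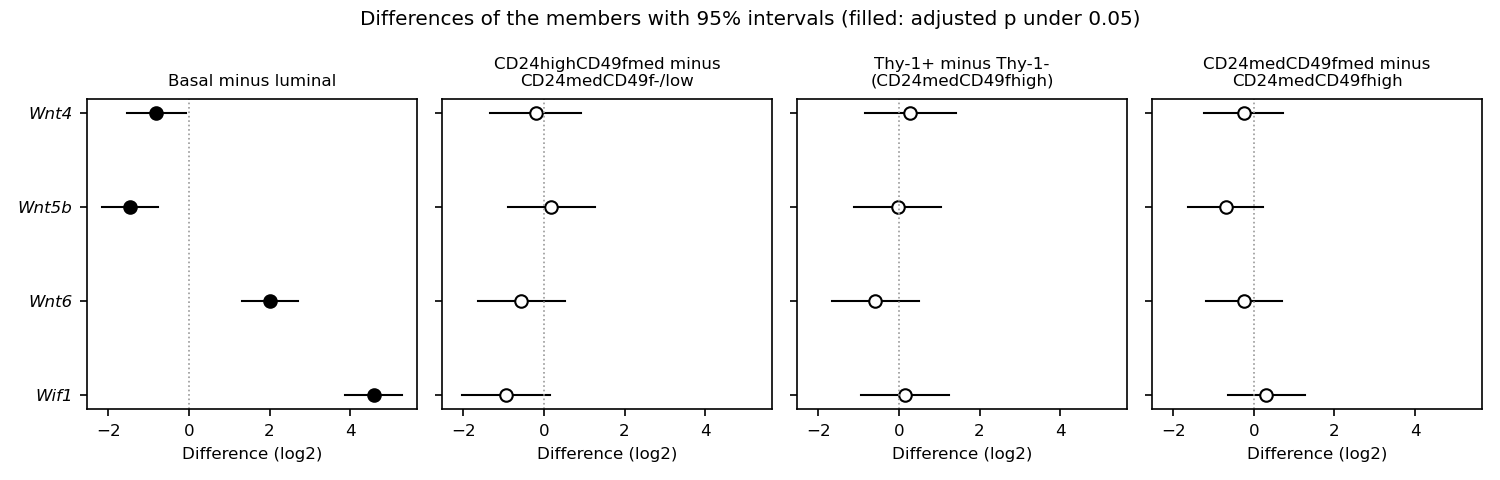
Difference on the log2 scale (horizontal axis) for each member in 4 comparisons, with 95% intervals from the linear model; filled points have an adjusted p under 0.05. All 4 members are filled for basal minus luminal, from -1.46 for Wnt5b to 4.59 for Wif1, and all 12 intervals within a layer cross 0.

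The rest of the pathway was read from lists of 109 genes, of which 25 were in the table and 21 were not members. In basal minus luminal, 16 of these 21 were called higher and 4 lower, or 76.2% and 19%, beside 34.7% and 41.3% of all features. Over the alternatives and with each array left out, 13 to 16 were called higher and 2 to 4 lower (13 and 2 without both arrays highest in keratinocyte markers). The lower count was 2 without CD24highCD49fmed replicate 1, Thy-1+CD24medCD49fhigh replicate 2 or Thy-1-CD24medCD49fhigh replicate 1. Their median difference was 1.36, against -0.11 over all features. Of 19 ligand genes on the list, the 3 members were the ones in the table, and neither of the 2 genes for Wnt secretion was. A gene outside the table was not analysed here.

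Among the 23 secreted or surface inhibitors, 6 were in the table. Beside Wif1, those called higher in basal cells were Igfbp4, whose product binds insulin-like growth factors and can block Wnt receptors (3.26 ± 0.32), Sostdc1, which binds LRP co-receptors and BMPs (3.02 ± 0.32), Dkk3, a divergent member of the dickkopf family (2.53 ± 0.37), and Sfrp1, a secreted frizzled-like protein (1.77 ± 0.33). For each of these 4 genes, all 6 basal arrays lay above all 4 luminal arrays. Shisa2, whose product holds frizzled receptors inside the cell, differed by -0.77 ± 0.34 (limma, adjusted p = 0.0435). It was high in CD24highCD49fmed cells alone, at 1.57 and 1.17, against -0.67 and -0.23 in CD24medCD49f-/low cells. Fibroblast markers, 8 of whose 9 genes in the table were called higher in basal cells, moved the same way, with array means of -0.0089 to 1.24 in basal and -1.22 to -0.66 in luminal arrays. Their part in the basal level of the inhibitors was not tested.

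Of 18 receptor genes on the list 4 were in the table, and these were mostly higher in basal cells. Fzd7 (2.21 ± 0.33), Fzd3 (1.40 ± 0.33) and the co-receptor gene Ptk7 (1.13 ± 0.35) were called higher, and Fzd4 was called lower (-1.84 ± 0.35). Basal values of Fzd4 reached 0.24 at most, in Thy-1+CD24medCD49fhigh replicate 2, and every luminal array lay above them, at 1.52 and 1.29 in CD24highCD49fmed cells and 1.15 and 0.45 in CD24medCD49f-/low cells. Lgr4 (1.80 ± 0.35), Lgr6 (1.60 ± 0.33) and Lgr5 (1.36 ± 0.41), which encode receptors for R-spondins, secreted proteins that amplify Wnt signals, were called higher too. Lgr5 reached 2.14 in Thy-1+CD24medCD49fhigh replicate 1. Without that array and CD24medCD49fmed replicate 2, Lgr5 was not called (0.81, limma adjusted p = 0.0958).

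Of 9 genes of the R-spondin axis on the list 4 were in the table, the Lgr genes above and Rspo1. Rspo1, which encodes an R-spondin ligand, was called lower in basal cells, at -1.49 ± 0.50 (limma, adjusted p = 0.0119). Basal values ran from -0.98 to 0.025, against 3.25 and -0.58 in CD24highCD49fmed cells and 0.92 and 0.0051 in CD24medCD49f-/low cells, so the layers overlapped. Without CD24highCD49fmed replicate 1 the difference was -0.54 (adjusted p = 0.266), and the call also ended without Thy-1+CD24medCD49fhigh replicate 2 (-1.40) or Thy-1-CD24medCD49fhigh replicate 1 (-1.38), and without both arrays highest in keratinocyte markers (-1.59).

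Of 26 transduction genes on the list 4 were in the table. Prickle1, of the planar polarity branch (1.66 ± 0.35), and Ctnnb1, which encodes β-catenin (0.92 ± 0.39, limma adjusted p = 0.0368), were called higher. Apc, a scaffold of the complex that degrades β-catenin (-1.68 ± 0.34), was called lower. Tle3, a co-repressor gene, was not called (0.61 ± 0.37, adjusted p = 0.128), except without CD24medCD49f-/low replicate 2 (0.96). Of 12 target genes on the list 4 were in the table, and all 4 were called higher in basal cells. These were Nkd2 (2.09 ± 0.34), Procr (1.11 ± 0.32), Cd44 (1.04 ± 0.36) and Tnfrsf19 (0.85 ± 0.35, limma adjusted p = 0.0334). Nkd2 encodes an inhibitor of dishevelled, and Procr a receptor for protein C.

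With each array left out in turn, Ctnnb1 was called in 2 of 10 cases, without CD24highCD49fmed replicate 2 or CD24medCD49f-/low replicate 2, and was 0.38 without CD24medCD49f-/low replicate 1. Shisa2 was called in 2 of 10 cases, without Thy-1-CD24medCD49fhigh replicate 2 or CD24medCD49f-/low replicate 1, with differences from -0.95 to -0.59. Tnfrsf19 was called in 4 of 10, without CD24medCD49fmed replicate 2, Thy-1+CD24medCD49fhigh replicate 2, Thy-1-CD24medCD49fhigh replicate 1 or CD24medCD49f-/low replicate 1, with differences from 0.63 to 1.07. Cd44 was not called without CD24medCD49fmed replicate 3 (0.87) or CD24highCD49fmed replicate 2 (0.90). The other 15 called genes, apart from Rspo1, were called in 10 of 10 cases. Without both arrays highest in keratinocyte markers, Ctnnb1 (0.84), Shisa2 (-0.71) and Tnfrsf19 (0.80) were not called. With the replicate number as a block, Ctnnb1 (0.81, adjusted p = 0.0708 by limma), Shisa2 (-0.87, adjusted p = 0.0517) and Tnfrsf19 (0.82, adjusted p = 0.0668) were not called either. Quantile normalisation ended the calls of Ctnnb1 (0.77) and Tnfrsf19 (0.69), array medians set to 0 that of Shisa2 (-0.68), and the probe set of highest range that of Ctnnb1 (0.87). Within the layers, none of the 21 genes was called by limma in any of the 3 comparisons, with 1, 1 and 0 at an unadjusted p under 0.05.

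**Figure D3:**
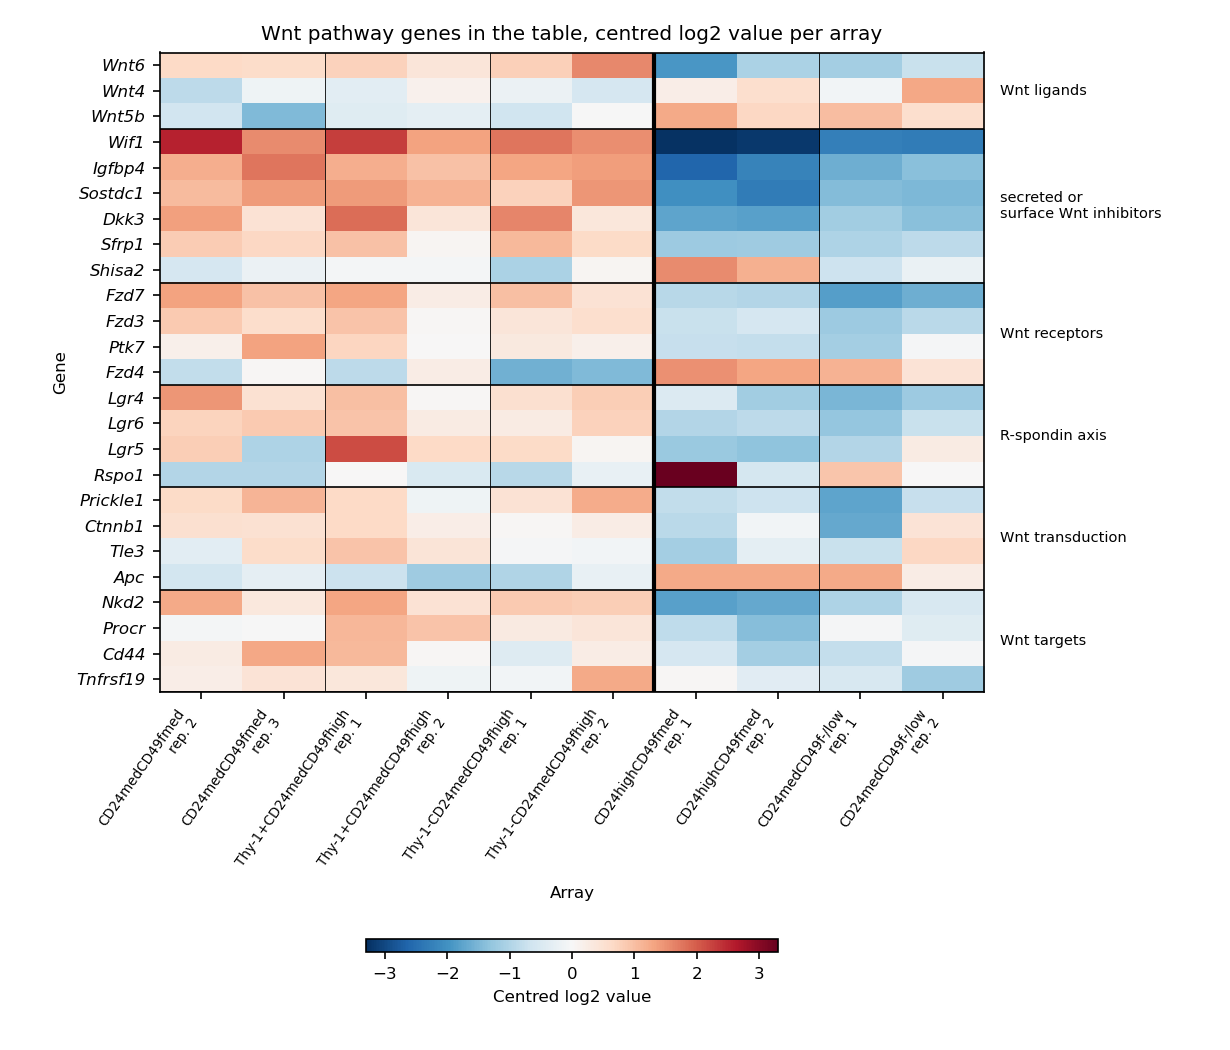
Centred log2 value (colour) of the 25 Wnt pathway genes in the table (rows, by role) on the 10 arrays (columns), with the heavy line between the 6 basal arrays and the 4 luminal arrays. Wif1, Igfbp4, Sostdc1, Dkk3 and Sfrp1 are above 0 in every basal and below 0 in every luminal array, while Fzd4, Apc and Wnt5b are high on the luminal side.

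Wnt4 is known to follow progesterone receptor signalling, so its values were set beside genes of hormone sensing cells. Pgr, the progesterone receptor gene, stood at -1.84 and -0.68 in CD24medCD49fmed cells, -1.21 and -0.03 in Thy-1+CD24medCD49fhigh cells and -1.13 and -0.60 in Thy-1-CD24medCD49fhigh cells, against 1.29 and 1.22 in CD24highCD49fmed cells and 1.49 and 1.50 in CD24medCD49f-/low cells. Both luminal gates were thus high in Pgr, and so were they in Esr1, the oestrogen receptor gene, at 1.08 and 1.37 and at 0.92 and 1.67. Tnfsf11, which encodes RANKL, another secreted signal downstream of progesterone, was 3.50 in CD24medCD49f-/low replicate 2, the array highest in Wnt4. It was 0.58 in the partner array and 0.58 and -0.05 in CD24highCD49fmed cells. Over the 10 arrays Wnt4 correlated at 0.866 with Esr1, 0.855 with Tnfsf11 and 0.783 with Pgr, and over the 6 basal arrays at 0.831, 0.708 and 0.793. Elf5, a luminal progenitor gene, had 0.759 and 0.487, and Foxa1, another hormone sensing gene, had 0.754 and 0.838. The basal and myoepithelial genes Acta2, Trp63 and Krt14 had -0.722, -0.673 and -0.694 over the 10 arrays. Over the 6 basal arrays they had -0.953, -0.545 and -0.337, so the coefficients were not particular to hormone sensing genes. Among all named genes Esr1 ranked 48, Tnfsf11 59, Pgr 145, Elf5 182 and Foxa1 193 in likeness to Wnt4. Foxa1 thus stood below Elf5, so these ranks do not set hormone sensing genes apart from luminal progenitor genes. Ranks of the other genes of both lists are not given. The progenitor genes Kit (1.89), Cd14 (2.00), Ltf (2.16), Aldh1a3 (1.49) and Csn3 (1.02) were, like Wnt4, highest in CD24medCD49f-/low replicate 2. Elf5 (1.84), Ehf (2.17) and Wfdc18 (1.62) were highest in CD24highCD49fmed replicate 1. The points behind the coefficients mix populations and share their arrays, and the coefficients are descriptions.

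**Figure D4:**
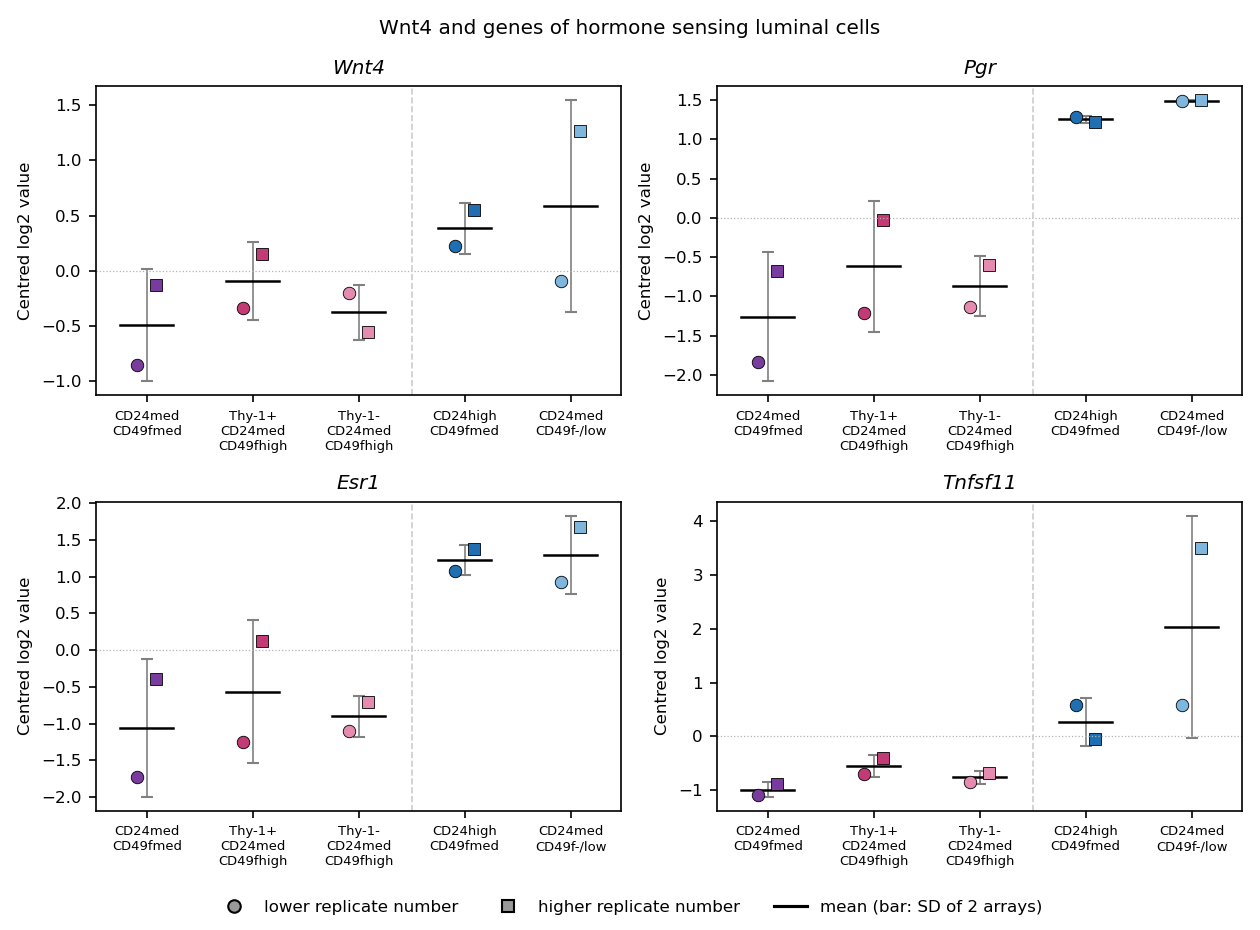
Centred log2 value (vertical axis) of Wnt4, Pgr, Esr1 and Tnfsf11 in the 5 populations, drawn as points per array, lines at the mean and bars of 1 SD over 2 arrays. CD24medCD49f-/low replicate 2 is the highest array for Wnt4 (1.27) and Tnfsf11 (3.50), while Pgr is near 1.5 in both arrays of that gate.

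The named genes most like each member were found by Pearson correlation over the 10 arrays. For Wif1 they were Gas1 (0.997), Lhfp (0.997), Cxcl12 (0.995), Krt14 (0.995) and Trp63 (0.994). Krt14 is a basal keratin gene and Trp63 encodes the basal transcription factor p63. For Wnt6 they were Chst11 (0.988), P3h3 (0.980), Gjc1 (0.973), Col18a1 (0.968) and Nebl (0.967). Wnt5b was most like Cd55 (0.987), Enah (0.974), Zfp612 (0.972), Bex1 (0.965) and Ldhd (0.959), and Wnt4 most like Smagp (0.969), Cldn3 (0.965), Fer1l4 (0.962), Fam174b (0.953) and Dhrs3 (0.952). Cldn3 encodes a tight junction claudin.

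Among the members, Wif1 and Wnt6 correlated at 0.927 over the 10 arrays, and at -0.095 over the 6 basal arrays. Wif1 and Wnt5b correlated at -0.869 and 0.0078, and Wnt6 and Wnt5b at -0.805 and 0.512, over the same sets. Wif1 and Wnt4 kept a negative coefficient in both, -0.720 and -0.737. Within the basal arrays Wif1 also correlated at 0.861 with Krt14 and at -0.934 with Pgr. The coefficients over 10 arrays span both layers, and all of these describe the same 10 libraries.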

How the data were processed

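Total RNA from 10 sorted samples was labelled in 2 cycles from the 3' end and hybridised to Affymetrix mouse arrays. The deposited values are log2 intensities that the authors normalised and centred per probe set (largest absolute mean over arrays 3e-07). The methods name RMA, the labels RMA and GCRMA, and no version is given in the sources used here. The authors kept probe sets above a minimum level with a range of at least 4-fold, and the smallest range here was 2.00 (log2). Signal over background cannot be read from these values, and the number of arrays limits the precision.

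Probe sets were named from the platform annotation (3291 with 1 symbol, 75 with several, 297 not listed) and averaged per gene, which gave 2932 features, of which 2560 were named genes. All 10 arrays entered 1 limma fit (lmFit and eBayes, limma 3.58.1, R 4.3.3) with a mean per population, 5 residual and 16.5 prior degrees of freedom. Tests were two-sided, with p-values adjusted by Benjamini-Hochberg over the features of a comparison and calls made under 0.05. The fit was also run on simulated data with independent noise for each feature. That simulation had no shifts common to an array, so it cannot show how such shifts affect the calls here. Rank products, the test of the study, was not run.

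Named were the members, the other genes of fixed Wnt lists that were in the table, and for each member the 5 genes most correlated with it. Pgr, Esr1, Tnfsf11, Elf5, Foxa1, Acta2, Kit, Cd14, Ltf, Aldh1a3, Csn3, Ehf and Wfdc18 are given singly, chosen after their values were seen. The members and lists were chosen with earlier results of these data known. As alternatives, each array was left out in turn, a replicate block was added, probe sets were tested alone or by the one of highest range, variances were moderated robustly, only the arrays compared were fitted, and arrays were quantile normalised or set to a median of 0. Leaving out both arrays highest in keratinocyte markers, and refitting the other pathway genes, were chosen after seeing the data. Cell type lists were used for the checks of the layers and beside results. In basal minus luminal, the numbers of genes called higher and lower, of those in the table, were 4 and 0 of 8 epidermal keratinocyte, 4 and 0 of 6 pericyte, 5 and 1 of 6 Schwann cell, 2 and 1 of 3 adipocyte and 0 and 4 of 7 shared luminal genes. Of the leukocyte list 1 gene was in the table and was called lower, and of the endothelial list 0 genes were in the table. Promoter windows are RefSeq's (GRCm38.p6).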

Additional observations from a re-analysis of the deposited data

Results flagged for a closer look

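Each of the 25 Wnt pathway genes was looked at for a single array far from the rest of its layer (Dixon's ratio of gap to range, 6 basal and 4 luminal arrays), and 3 of 50 groups were flagged, where chance flags about 1 in 20. Wnt6 was 1.58 in Thy-1-CD24medCD49fhigh replicate 2, above the other 5 basal arrays, whose highest was 0.78. Apc was 0.26 in CD24medCD49f-/low replicate 2, below the other 3 luminal arrays, whose lowest was 1.26. Prickle1 was -1.74 in CD24medCD49f-/low replicate 1, below the other 3 luminal arrays, whose lowest was -0.81.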

How the results depend on the processing

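Basal minus luminal differences of Wnt5b, Wnt6 and Wif1 kept their direction and their call under every alternative. With each array left out they ran from -1.60 to -1.31, from 1.78 to 2.22 and from 4.42 to 4.75. Wnt4 was -0.72 with array medians set to 0 (adjusted p = 0.0558) and -0.61 without both arrays highest in keratinocyte markers (adjusted p = 0.200), not called in either, and -1.15 to -0.47 with each array left out. The cause was not tested here or for the changes below. With array medians set to 0, Wnt5b changed sign to -0.30 between the luminal gates and Wif1 to -0.012 for Thy-1+ minus Thy-1-, while quantile normalisation gave -0.34 for Wnt5b between the luminal gates and -0.040 for Wnt6 in CD24medCD49fmed minus Thy-1+CD24medCD49fhigh cells. Without both keratinocyte-high arrays, Thy-1+ minus Thy-1- was 0.011 for Wnt5b and -0.32 for Wif1, and CD24medCD49fmed minus Thy-1-CD24medCD49fhigh was 0.25 for Wnt4 and -0.11 for Wif1. None of these values was called. Between the luminal gates, Wif1 was -1.43 ± 0.52 (SE) with array medians set to 0 and -0.24 ± 0.44 with quantile normalisation. Wnt6 was -1.04 ± 0.49 and -0.49 ± 0.43 in the same settings, and neither gene was called. Calls of members in single pairs of populations changed too, and are given here by number only. Fitting only the arrays compared ended 4 of them. Array medians set to 0 and quantile normalisation each ended some and added 1.

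With each array left out, differences between the luminal gates ran from -0.88 to 0.48 for Wnt4 (0.48 without CD24medCD49f-/low replicate 2) and from -0.11 to 0.46 for Wnt5b (-0.064 without CD24medCD49f-/low replicate 2). Thy-1+ minus Thy-1- ran from -0.34 to 0.29 for Wnt5b and from -0.32 to 0.63 for Wif1. CD24medCD49fmed minus CD24medCD49fhigh ran from -0.62 to 0.11 for Wnt4 and from -0.18 to 0.80 for Wif1. CD24medCD49fmed minus Thy-1+CD24medCD49fhigh ran from -0.14 to 0.23 for Wnt6 and from -0.26 to 0.73 for Wif1, and minus Thy-1-CD24medCD49fhigh from -0.47 to 0.25 for Wnt4 and from -0.11 to 0.88 for Wif1.

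The same replicate numbers recur between populations, and the labels do not say that a number marks a shared animal or batch. Not every pair of populations deviated together, so the numbers were not taken to pair the arrays. The luminal gates, whose replicate differences correlated most, were therefore compared unpaired as well. Correlations of replicate differences over features were 0.521 for the luminal gates, 0.300 for Thy-1+ with Thy-1- and -0.198 to 0.0776 for the other 4 pairs. Number 3 occurs in CD24medCD49fmed alone. A replicate block changed no call of a member in the 4 main comparisons, but ended the basal minus luminal calls of Ctnnb1 (0.81), Shisa2 (-0.87) and Tnfrsf19 (0.82). It gave -0.14 for Wnt6 in CD24medCD49fmed minus Thy-1+CD24medCD49fhigh, and it ended the pair calls of Wnt5b for CD24medCD49fmed minus either luminal gate (-1.55 and -1.37) and Thy-1-CD24medCD49fhigh minus CD24highCD49fmed (-1.30), and of Wnt6 for CD24medCD49fmed minus CD24medCD49f-/low (1.37).

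Counts of features called varied more. Between the luminal gates 6 were called, and the count was 20 with medians set to 0, 0 with quantile normalisation, 0 with only the arrays compared, 11 for probe sets tested alone, 33 with the block, 0 without both keratinocyte-high arrays and 0 to 295 with each array left out (451 at an unadjusted p under 0.05 by limma). For Thy-1+ minus Thy-1- it was 2, against 13 with only the arrays compared, 9 with the block, 0 without both keratinocyte-high arrays, 0 to 11 with each array left out, and 1 with medians set to 0, with quantile normalisation, for probe sets tested alone and for the probe set of highest range (74 unadjusted). For CD24medCD49fmed minus CD24medCD49fhigh it was 1, against 0 with quantile normalisation, 19 with the block, 0 without both keratinocyte-high arrays and 0 to 1 with each array left out (52 unadjusted). With only the arrays compared, basal minus luminal is the same fit.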
